A study of Mus musculus with 24 samples.

Results

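Potassium channel genes were examined as a group in RNA from the CA1 subfield of the mouse hippocampus. The group holds every protein-coding gene whose symbol starts with Kcn in any of the 4 deposited comparison tables. This gave 79 Ensembl genes of the 38355 counted, under 78 symbols, because Kcnb2 stood under 2 overlapping identifiers. All mice were C57BL/6J aged 3 to 5 months, and all carried the floxed Kat2a allele (Kat2afl/fl). Kat2a encodes a histone acetyltransferase. The conditional knockout (cKO) also carried CamKII_alpha-cre+, a recombinase under a promoter active mainly in excitatory forebrain neurons, so other cells of the dissected tissue keep the gene. Naive mice had no exposure, and the others had 15 min of exposure to novelty, with the time from exposure to dissection not given in the sources used here. Libraries numbered 6 and 5 for control mice without and with novelty, and 6 and 7 for cKO mice. The labels do not say that each came from a separate mouse, so p-values measure the spread between these libraries. The comparisons ask which transcripts differ with novelty exposure in each genotype, and which differ between genotypes with and without novelty.

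Potassium channels let potassium leave the cell along its gradient, which sets the resting potential, ends the action potential and limits repeated firing. Voltage-gated channels are built from pore-forming alpha subunits, modified by silent alpha subunits and by cytoplasmic or membrane auxiliary subunits, while inward rectifiers and the K2P leak channels act near rest. In CA1 pyramidal neurons, channels of the Kv4 family carry the transient A-type current of the dendrites, and Kv7 channels carry the M current that neuromodulators reduce.

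The libraries held between 10.7 M and 35.75 M reads assigned to genes. Kat2a lay between 56 and 70.3 CPM (the reads of a gene scaled to the size of its library) in the 11 control libraries and between 31.2 and 39.3 CPM in the 13 cKO libraries, without overlap. Fos, an early response gene, lay at or below 6.3 CPM in every naive library and at or above 20.1 CPM in every novelty library. The tissue held CA1 pyramidal markers (6 of 6 genes found, 1000 to 1490 CPM summed) and also dentate granule markers (6 of 6 genes found, 95.2 to 299 CPM summed). The RNA is from bulk tissue, so fewer cells of a type and less RNA per cell cannot be told apart. Pairs of libraries correlated at 0.9813 to 0.994 across genes on the log2 CPM scale. Library preparation kept no strand information, and where exons of opposite strands overlap, their reads cannot be told apart.

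The 79 genes fell by symbol and textbook role into 8 families. These were the voltage-gated alpha subunits (16 genes), the silent alpha subunits (9), the Kv auxiliary subunits (10), Kv7 (5), the ether-a-go-go channels (8), the calcium- and sodium-activated channels (10), the inward rectifiers (12) and the K2P channels (9). The selectivity filter, the stretch of the pore that admits potassium, was looked up in the longest coding sequence of each gene in the GENCODE M21 annotation (GRCm38). The pattern searched was 5 codons: threonine or serine, then valine, isoleucine, leucine or threonine, then glycine, then tyrosine, phenylalanine or leucine, then glycine. It was found in 65 of the 78 genes with a coding sequence, and none of the 10 Kv auxiliary genes had it. The other 3 genes without it were the auxiliary beta subunits Kcnmb1, Kcnmb2 and Kcnmb4. All 9 K2P genes had it 2 times, as their subunits carry a pair of pore loops. The fourth codon was tyrosine in 15 of 15 voltage-gated alpha, 9 of 9 silent and 5 of 5 Kv7 genes, and phenylalanine in 8 of 8 ether-a-go-go genes. Sequences of this stretch are shown for 10 genes that differed between groups below, with the 5 filter codons in capitals and 6 bases on each side in lower case.
Kcna4: atgacaACTGTGGGCTATGGGgacatg
Kcnd1: atgaccACACTTGGGTATGGAgatatg
Kcnd2: atgacaACACTGGGGTATGGCgacatg
Kcnq3: ctggccACCATTGGTTATGGAgacaag
Kcnh6: ctcactAGTGTGGGCTTCGGCaatgtg
Kcnh7: ctaaccAGTGTAGGATTTGGAaatgtg
Kcnt2: ttttctACTGTGGGCTTTGGGgatgtc
Kcnj2: cagacaACCATTGGCTATGGTttcagg
Kcnj3: gaggccACCATCGGCTATGGCtaccgc
Kcnk6, filter 1: gtcaccACCGTGGGCTATGGCtacacg
Kcnk6, filter 2: ctgtccACCATTGGCCTAGGGgactac

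All 79 genes passed the filter on low counts in every comparison, and 71 had a mean raw count of at least 50. Levels between genes were compared per kilobase of exon, in CPM per kb over all 24 libraries, for the 78 genes with a length. Lengths are from GENCODE M21, while the gene ends in the authors' deposited tables differ from M21 for many genes. Where the M21 gene reaches further, the level per kb can come out too low. Such differences of several kb or more include those of Kcna2, Kcna5, Kcnj11, Kcnk9, Kcnq3 and Kcnn3, and no order is drawn for these genes. Ends also differ for Kcnma1 (211187 bp), Kcnk2 (58442 bp) and Kcna1 (4517 bp), so their places among other genes below are uncertain. The members had a median of 5 CPM per kb and all tested genes 4.78 CPM per kb, and 40 members lay above that second value. Kcnab2, a Kv beta subunit that binds the cytoplasmic side of Kv1 channels, had by far the most transcript at 127 CPM per kb.

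Among the voltage-gated alpha subunits, Kcna1 (39.9 CPM per kb) and Kcnd2 (32.9 CPM per kb) led, followed by Kcnc2 at 19.4 CPM per kb. Kcna1 encodes a delayed rectifier of axons, Kcnd2 the main A-type subunit of CA1 dendrites, and Kcnc2 a fast channel known from fast-spiking interneurons. Kcnc1 reached 17.5, Kcnd3 13.1 and Kcna4 8.28 CPM per kb. Kcna5 had 0.713 CPM per kb, but its deposited ends differ from M21 by 162782 bp, so it is not ranked. Kcna2 had 6.12 CPM per kb over an M21 exon length of 11906 bp. Its deposited gene runs only from 107101567 to 107106879 on chromosome 3, so that value is likely too low and is not ranked. Among the silent subunits, which modify other Kv channels and form no channel alone, Kcnf1 led at 24.7 CPM per kb, ahead of Kcnv1 at 9.76 and Kcng1 at 9.59 CPM per kb. Kcns2 had 5.75 and Kcng2 4.01 CPM per kb.

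Among the auxiliary subunits, the Kv4-binding calcium sensors Kcnip3 and Kcnip2 had 39.3 and 38.1 CPM per kb, and their relatives Kcnip4 and Kcnip1 had 19.2 and 4.53 CPM per kb. The membrane subunits Kcne3 and Kcne4 were low, at 0.487 and 0.357 CPM per kb. In the Kv7 family, Kcnq5 had 9.56 and Kcnq3 4.26 CPM per kb, and the heart and ear subunit Kcnq1 had 0.143 CPM per kb. Exons of Kcnq1 overlap the antisense RNA Kcnq1ot1 over 2.96% of their length. Among the ether-a-go-go channels, Kcnh3 had 17.2, Kcnh7 9.22 and Kcnh1 7.67 CPM per kb.

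The calcium- and sodium-activated channels had no gene as high, and 4 of them lay close together. The small-conductance channel Kcnn2 had 7.83, the large-conductance channel Kcnma1 7.74, the sodium-activated channel Kcnt1 7.65 and the brain beta subunit Kcnmb4 7.28 CPM per kb. Kcnt2 had 4.71, Kcnn1 3.93 and Kcnn3 0.781 CPM per kb. Among the inward rectifiers, Kcnj4, Kcnj10 and Kcnj3 were almost level at 34.4, 34.3 and 34.3 CPM per kb. Kcnj4 and Kcnj3 are known from neurons, and Kcnj10 is the channel of astrocytes and oligodendrocytes. The G protein-gated partners of Kcnj3 were Kcnj9 at 29.3 and Kcnj6 at 5.5 CPM per kb, and Kcnj5, a partner known from the heart, lay lowest of all members at 0.142 CPM per kb. Kcnj16 had 8.76 and Kcnj2 2.07 CPM per kb. The ATP-sensitive channel Kcnj11 had 4.27 CPM per kb over an M21 exon length of 3677 bp. Its deposited gene runs only from 46098725 to 46099897 on chromosome 7, so that value is likely too low and is not ranked. In the K2P family, Kcnk1 had 32.1, Kcnk2 12.2 and Kcnk3 3.69 CPM per kb. Kcnk9 had 1.33 CPM per kb over 12300 bp, but its deposited ends differ from M21 by 11091 bp, so it is not ranked.

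**Figure D1:**
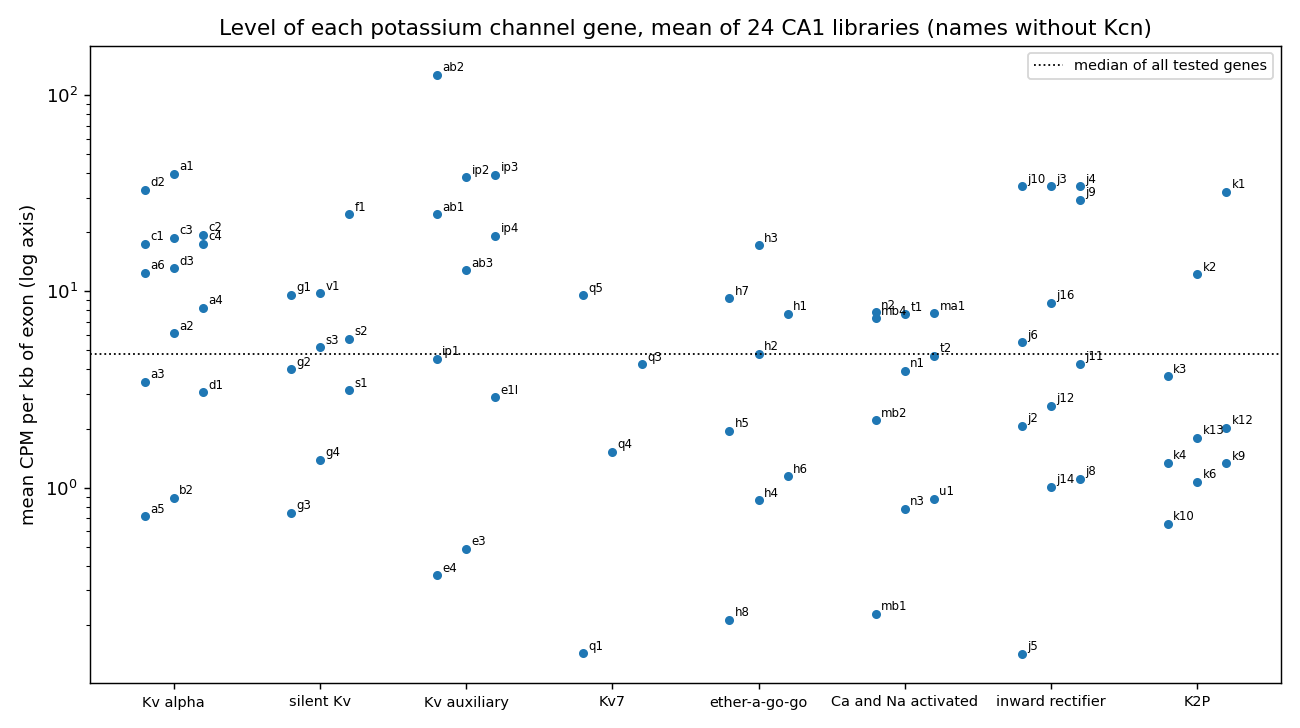
Mean level of 76 of the 78 potassium channel genes with a length in CPM per kb of exon over 24 libraries on a log axis, 1 point a gene, grouped by family and labelled without the prefix Kcn. The dotted line is the median of all tested genes, 4.78 CPM per kb, and Kcnab2 at 127 CPM per kb lies above every other member.

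Between naive and novelty-exposed mice few potassium channel transcripts passed the test, and Kcna4 had the smallest adjusted p. Kcna4 encodes the inactivating A-type subunit of the Kv1 family and lies on chromosome 2 from 107290639 to 107298502 (GRCm38, plus strand), with no other gene over its exons. Of all genes tested in cKO libraries, 2.41% passed (edgeR, adjusted p below 0.05) and 0.484% passed as lower, against 1 of the 79 members, Kcna4, which was lower.

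In cKO naive libraries Kcna4 ran from 40.3 to 46.7 CPM with a median of 43.5 CPM. In cKO novelty libraries it ran from 29.2 to 36.2 CPM with a median of 33.8 CPM. Every novelty library was below every naive library, and Kcna4 fell by 0.39 on the log2 scale (SE 0.05, adjusted p = 0.000357), a fold of 0.764. In control naive libraries Kcna4 ran from 37.3 to 54.3 CPM with a median of 47.3 CPM, and the control novelty libraries held 40.1, 37.5, 36, 39.2 and 34.5 CPM. The ranges overlapped here because the fourth control naive library, at 37.3 CPM, was low. The log2 difference in controls was -0.31 (SE 0.08), and it did not pass (adjusted p = 0.091). Without that library it was -0.36 and passed (adjusted p = 0.0149). Of the 11 fits in controls that left out 1 library, this was the only fit in which Kcna4 passed.

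In controls 1.22% of all genes passed and none of the 79 members did. Unadjusted p was below 0.05 for 6 members, where 11% of all genes were below it, and DESeq2 called 3 members: Kcna4, Kcnk6 and Kcnk1. The difference of the novelty effect between genotypes was tested as an interaction, and Kcna4 gave -0.09 (SE 0.09, adjusted p = 1). No gene of the 16744 tested passed the interaction (0% called), under edgeR. Among the members, unadjusted p was below 0.05 for 3, among them the low transcripts Kcne3 and Kcnj5, against 4.11% of all genes, and DESeq2 called none.

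Averaged over the genotypes in a fit of all 24 libraries, novelty changed 6.55% of all genes and 3 of the 79 members. Kcna4 fell by 0.35 (SE 0.05, adjusted p = 1.66e-05) and Kcnj2 fell by 0.55 (SE 0.16, adjusted p = 0.046), both on the log2 scale. Kcnk6, which encodes a K2P channel of low activity, rose by 0.41 (SE 0.09, adjusted p = 0.00302). These comparisons reuse the libraries of the pairwise ones and are no separate evidence.

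Kcnk6 was a low transcript. Its control naive libraries ran from 2.99 to 4.78 CPM with a median of 3.41 CPM, and its control novelty libraries held 4.11, 5.11, 6.29, 5.15 and 4.97 CPM. The cKO naive libraries ran from 3.38 to 4.78 CPM with a median of 3.91 CPM, and the cKO novelty libraries from 3.97 to 5.89 CPM with a median of 4.99 CPM. The novelty groups were higher in both genotypes, and the ranges overlapped in both. The pairwise log2 differences were 0.49 (SE 0.14, adjusted p = 0.118) in controls and 0.32 (SE 0.11, adjusted p = 0.153) in cKO mice.

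Kcnj2 encodes a strong inward rectifier that holds cells near the potassium equilibrium potential. Its control naive libraries ran from 11.9 to 18.9 CPM with a median of 14.5 CPM, and its control novelty libraries held 10.9, 12.7, 12, 9.8 and 5.91 CPM. Its cKO naive libraries fell into a low and a high set, at 7.47, 8.75, 8.67 and at 16.9, 14.2, 15.7 CPM, and the cKO novelty libraries ran from 4.74 to 13 CPM with a median of 8.13 CPM. The groups overlapped in both genotypes, and the group SD reached 34.5% of the mean. The call of Kcnj2 passed in 6 of the 24 fits that left out 1 library, with adjusted p between 0.0152 and 0.082, and ended without any filter on low counts (adjusted p = 0.0993).

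**Figure D2:**
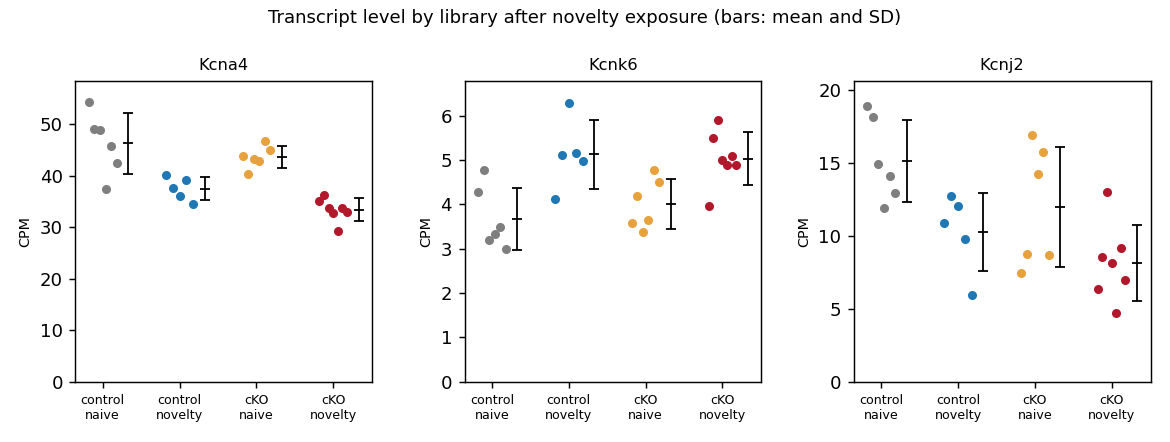
Level of Kcna4, Kcnk6 and Kcnj2 in CPM on axes from 0, 1 point a library in each of the 4 groups, with the mean and SD beside the points. For Kcna4 the cKO novelty libraries (29.2 to 36.2 CPM) lie below all cKO naive libraries, while Kcnj2 overlaps between naive and novelty in both genotypes.

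Kcnk1, a K2P channel abundant in brain, and the silent subunit Kcnv1 lay just outside the threshold in the averaged comparison. Kcnk1 ran from 63.7 to 74.4 CPM in control naive libraries, and control novelty libraries held 82.5, 83, 77.3, 77.4 and 74.4 CPM. No control novelty library was below a naive one, although the nearest pair both round to 74.4 CPM. In cKO mice the ranges were 63.9 to 78.3 CPM without and 61.7 to 76.2 CPM with novelty. Its log2 difference was 0.19 (SE 0.05, adjusted p = 0.116) in controls and 0.12 (SE 0.04, adjusted p = 0.0678) on average, and its interaction term was -0.16 (SE 0.08, adjusted p = 1). Without the second control naive library, Kcnk1 and Kcnk6 passed in controls, at 0.22 and 0.57 (adjusted p = 0.0445 for both). They passed in controls in no other fit that left out 1 library. Kcnv1 gave -0.17 (SE 0.06, adjusted p = 0.0707) on average.

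The median log2 difference in controls was -0.01 over the members and -0.014 over all genes, and in cKO mice -0.024 and -0.01. No family had a median novelty difference beyond 0.05 in size in controls or in the average, and in cKO mice the largest were -0.09 for the Kv auxiliary and Kv7 families. In the average, the dendritic A-type subunit Kcnd2 gave 0.02 (SE 0.04), Kcnma1 0.01 (SE 0.03) and Kcnn2 0.05 (SE 0.04), and none passed.

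Promoters of the genes that fell after novelty on average are shown so that their letters can be read beside the motif counts, from RefSeq on GRCm38.p6, with 200 bases before and 20 after the start site. The RefSeq table held 79 promoters of 55 member symbols, among 32851 in all, each of 300 bases, and Kcnk6 was not among them. Motifs were searched on both strands. The EGR motif GCGNGGGCG was in 5.06% of member promoters and 5.55% of all, the short CRE site TGACG in 17.7% and 20.8%, the AP-1 motif TGANTCA in 5.06% and 7.81%, and TATAAA in 3.8% and 13.6%. The full CRE TGACGTCA, which contains the short site, was in 0 of 79 and in 1.79% of all. Capitals mark a motif: Kcna4 has the EGR motif across its start site, in reverse orientation, and Kcnj2 has none of the 5. Kcna4 lies at chr2:107290389-107290608 and Kcnj2 at chr11:111065964-111066183, both on the plus strand.
Kcna4: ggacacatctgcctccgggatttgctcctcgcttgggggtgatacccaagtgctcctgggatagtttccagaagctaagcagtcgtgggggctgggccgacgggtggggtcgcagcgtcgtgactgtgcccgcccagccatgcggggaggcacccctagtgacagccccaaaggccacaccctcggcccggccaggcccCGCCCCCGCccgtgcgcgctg
Kcnj2: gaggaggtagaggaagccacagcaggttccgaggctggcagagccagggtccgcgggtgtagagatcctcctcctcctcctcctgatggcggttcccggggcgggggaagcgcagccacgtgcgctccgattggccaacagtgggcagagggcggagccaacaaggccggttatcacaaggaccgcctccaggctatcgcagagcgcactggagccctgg

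Between genotypes, more potassium channel genes differed, and most that passed were lower in cKO mice. After novelty, 9 of the 79 members passed, or 11.4%, where 4.53% of all genes did. Lower were 7 members (8.86%, against 2.40% of all genes) and higher were 2 members (2.53%, against 2.13%). The members that were lower include Kcnd2 and its auxiliary subunit Kcnip4, the Kv beta subunits Kcnab1 and Kcnab3, the M current subunit Kcnq3, the G protein-gated channel Kcnj3 and the ether-a-go-go channel Kcnh7. Higher were Kcnd1, another A-type subunit of the Kv4 family, and Kcnh6, an ether-a-go-go channel close to Kcnh7.

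Kcnip4 held 76.2, 74.4, 75.3, 80.7 and 80.7 CPM in control novelty libraries and ran from 54.1 to 73.9 CPM, with a median of 62.8 CPM, in cKO novelty libraries. Every cKO library was below every control library. The gene lies on chromosome 5 from 48389502 to 49524904 (GRCm38, minus strand), and other genes overlap 7.36% of its exon bases. Kcnip4 fell by 0.29 on the log2 scale (SE 0.06, adjusted p = 0.0158). Without novelty its groups overlapped, at 65.9 to 87.4 CPM in controls and 61 to 72.4 CPM in cKO mice, with a log2 difference of -0.09 (SE 0.07, adjusted p = 0.579). The interaction of -0.20 (SE 0.10) did not pass (adjusted p = 1), so a larger genotype difference after novelty was not shown.

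Kcnd2 held 192, 181, 174, 180 and 179 CPM in control novelty libraries and ran from 149 to 167 CPM, with a median of 163 CPM, in cKO novelty libraries. Kcnd2 lies on chromosome 6 from 21215503 to 21729805 on the plus strand, with no exon overlap. These groups also did not overlap, and Kcnd2 fell by 0.17 (SE 0.04, adjusted p = 0.0232). Without novelty the ranges were 145 to 207 CPM in controls and 151 to 177 CPM in cKO mice, with a log2 difference of -0.07 (SE 0.07). Averaged over exposures, Kcnd2 gave -0.12 (SE 0.04) and stood just outside the threshold (adjusted p = 0.0512).

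Kcnd1 was less abundant per length (3.06 against 32.9 CPM per kb for Kcnd2) and moved the other way. It held 15.4, 14.1, 14.6, 12.4 and 14.5 CPM in control novelty libraries and ran from 15.3 to 18.8 CPM, with a median of 17.7 CPM, in cKO novelty libraries. The ranges met at their ends, and Kcnd1 rose by 0.29 (SE 0.07, adjusted p = 0.0227). In naive libraries it ran from 14.6 to 16.7 CPM in controls and from 16 to 18.8 CPM in cKO mice. Averaged over exposures Kcnd1 rose by 0.22 (SE 0.04, adjusted p = 0.00147). The third Kv4 subunit, Kcnd3, gave 0.05 (SE 0.04), and the calcium sensors Kcnip1, Kcnip2 and Kcnip3 gave -0.08, -0.07 and 0, none of them past the threshold.

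The pair of ether-a-go-go genes also moved in opposite directions. Kcnh6 held 2.37, 2.48, 2.87, 3.77 and 3.19 CPM in control novelty libraries and ran from 3.71 to 5.51 CPM, with a median of 4.56 CPM, in cKO novelty libraries. In naive libraries it ran from 2.96 to 3.94 CPM in controls and from 3.65 to 6.01 CPM in cKO mice. The groups met at the edges in both exposures, and cKO medians were higher in both. The log2 difference was 0.65 (SE 0.14, adjusted p = 0.0162) after novelty, 0.52 (SE 0.12, adjusted p = 0.0563) in naive mice and 0.59 (SE 0.09, adjusted p = 0.000141) on average, a fold of 1.5. Kcnh7 held 171, 152, 153, 168 and 166 CPM in control novelty libraries and ran from 103 to 156 CPM, with a median of 121 CPM, in cKO novelty libraries. Only the third cKO library, at 156 CPM, reached into the control range. Kcnh7 fell by 0.34 after novelty (SE 0.09, adjusted p = 0.0495) and by 0.28 on average (SE 0.07, adjusted p = 0.00621), and Gca, on the opposite strand, overlaps 4.57% of its exon bases.

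The Kv beta subunits bind Kv1 channels, and all 3 genes of this type were lower on average. Kcnab1 held 250, 235, 224, 227 and 222 CPM in control novelty libraries and ran from 171 to 225 CPM, with a median of 201 CPM, in cKO novelty libraries. Kcnab3 held 33.8, 41.1, 38.8, 43.5 and 40.4 CPM in control novelty libraries and ran from 27.7 to 36.2 CPM, with a median of 33.2 CPM, in cKO novelty libraries. For Kcnab1, 1 of the 7 cKO libraries lay above the lowest control library, and for Kcnab3, 3 of 7 did (34.1, 35.6 and 36.2 CPM). Kcnab1 fell by 0.24 after novelty (SE 0.06, adjusted p = 0.0351) and by 0.20 on average (SE 0.05, adjusted p = 0.0162). Kcnab3 fell by 0.27 after novelty (SE 0.07, adjusted p = 0.0382) and by 0.23 on average (SE 0.06, adjusted p = 0.0155). Kcnab2 ran from 698 to 831 CPM in 10 of the 11 control libraries, with 1 at 669 CPM, and from 589 to 773 CPM in cKO libraries, and fell by 0.12 on average (SE 0.04, adjusted p = 0.0432). That call was the nearest inside the threshold and passed in 7 of the 24 fits that left out 1 library. The Kv1 alpha subunits Kcna1 and Kcna2 gave -0.09 (SE 0.05) and -0.10 (SE 0.05) on average and did not pass.

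Kcnq3 held 79.2, 64.1, 66.6, 69.2 and 68.3 CPM in control novelty libraries and ran from 49.5 to 64.5 CPM, with a median of 58 CPM, in cKO novelty libraries. It fell by 0.26 after novelty (SE 0.07, adjusted p = 0.0384), was level in naive mice at -0.02 (SE 0.09, adjusted p = 0.971), and gave -0.14 on average (SE 0.06, adjusted p = 0.14). Its interaction was -0.24 (SE 0.12, adjusted p = 1), so a difference between exposures was not shown. Kcnq5, of the same family, gave -0.11 on average (SE 0.09).

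Kcnj3 held 206, 194, 171, 182 and 184 CPM in control novelty libraries and ran from 152 to 178 CPM, with a median of 162 CPM, in cKO novelty libraries, with overlap. It fell by 0.19 after novelty (SE 0.05, adjusted p = 0.047) and by 0.18 on average (SE 0.05, adjusted p = 0.0123). Gm26794, on the opposite strand, overlaps 31.1% of the exon bases of Kcnj3, and reads there cannot be assigned to one of them. Its partners Kcnj9 and Kcnj6 gave -0.13 (SE 0.07) and 0 (SE 0.07) on average, and the glial channels Kcnj10 and Kcnj16 gave -0.12 (SE 0.06) and 0.01 (SE 0.07). None of these 4 passed.

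Of the 9 calls after novelty, Kcnip4 passed in all 12 fits that left out 1 library, Kcnh6 in 11, Kcnd1 in 10, Kcnd2 in 9, Kcnq3 in 5, Kcnab1 and Kcnab3 in 4, Kcnj3 in 3 and Kcnh7 in 2. The count of members was 2 without control novelty library 2 or 5, 4 without control novelty library 1 or cKO novelty library 4, and 5 without cKO novelty library 5 or 6. Kcnh6 lost its call without control library 2 (0.59, adjusted p = 0.0642), and Kcnd1 without control library 2 (0.28, adjusted p = 0.0678) or 5 (0.30, adjusted p = 0.0501). Kcnd2 lost its call without control library 1, 2 or 5 (adjusted p = 0.061, 0.0643 and 0.0509). The highest adjusted p with 1 library left out was 0.0882 for Kcnq3, 0.0909 for Kcnab1, 0.106 for Kcnab3, 0.128 for Kcnj3 and 0.109 for Kcnh7. Just outside the threshold stood Kcnt1 at 0.36 (SE 0.10, adjusted p = 0.055), Kcnt2 at -0.22 (SE 0.06, adjusted p = 0.0601) and Kcnab2 at -0.17 (SE 0.05, adjusted p = 0.0702).

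In naive mice 0.801% of all genes passed the genotype comparison and none of the 79 members did, under edgeR. Unadjusted p was below 0.05 for 15 members, against 13.6% of all genes, and DESeq2 called 3, Kcnc2, Kcnh6 and Kcns3. The same 3 genes had the smallest p under edgeR. Kcnc2 ran from 141 to 170 CPM in controls and from 117 to 141 CPM in cKO mice, and the groups did not overlap, although the nearest pair both round to 141 CPM. It gave -0.23 (SE 0.05, adjusted p = 0.0533). Kcns3 ran from 16.2 to 20.5 CPM in controls and from 12.6 to 16.5 CPM in cKO mice, and gave -0.30 (SE 0.07, adjusted p = 0.0792). Kcnc2 passed without the fourth cKO naive library (-0.25, adjusted p = 0.0371), and Kcnh6 without the fifth (0.60, adjusted p = 0.021). Each passed in no other of the 12 fits that left out 1 library. The naive libraries are other libraries than the novelty ones. All 9 members called after novelty had the same sign in naive mice, as did 96.3% of all genes called after novelty, so the share of the members was near that of other called genes.

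Averaged over exposures, 14 of the 79 members passed (17.7%, against 12% of all genes). Lower were 10 members (12.7%, against 6.32% of all genes) and higher were 4 (5.06%, against 5.72%). The median log2 difference was -0.039 over the members and 0.005 over all genes, and 31 of the 79 members had a positive value where 52% of all genes did. The summed level of all 79 genes was 5410 ± 93.9 CPM (SD, n = 6) in control naive, 5480 ± 86.5 (SD, n = 5) in control novelty, 5190 ± 120 (SD, n = 6) in cKO naive mice and 5150 ± 110 CPM (SD, n = 7) in cKO novelty libraries. Control libraries ran from 5270 to 5610 CPM and cKO libraries from 4980 to 5330 CPM, with a small overlap. The sums weigh abundant transcripts most, and the Kv auxiliary family, led by Kcnab2, held 1360 ± 40.4 and 1420 ± 69.1 CPM in control and 1290 ± 71.9 and 1270 ± 60 CPM in cKO libraries, naive and novelty in turn.

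**Figure D3:**
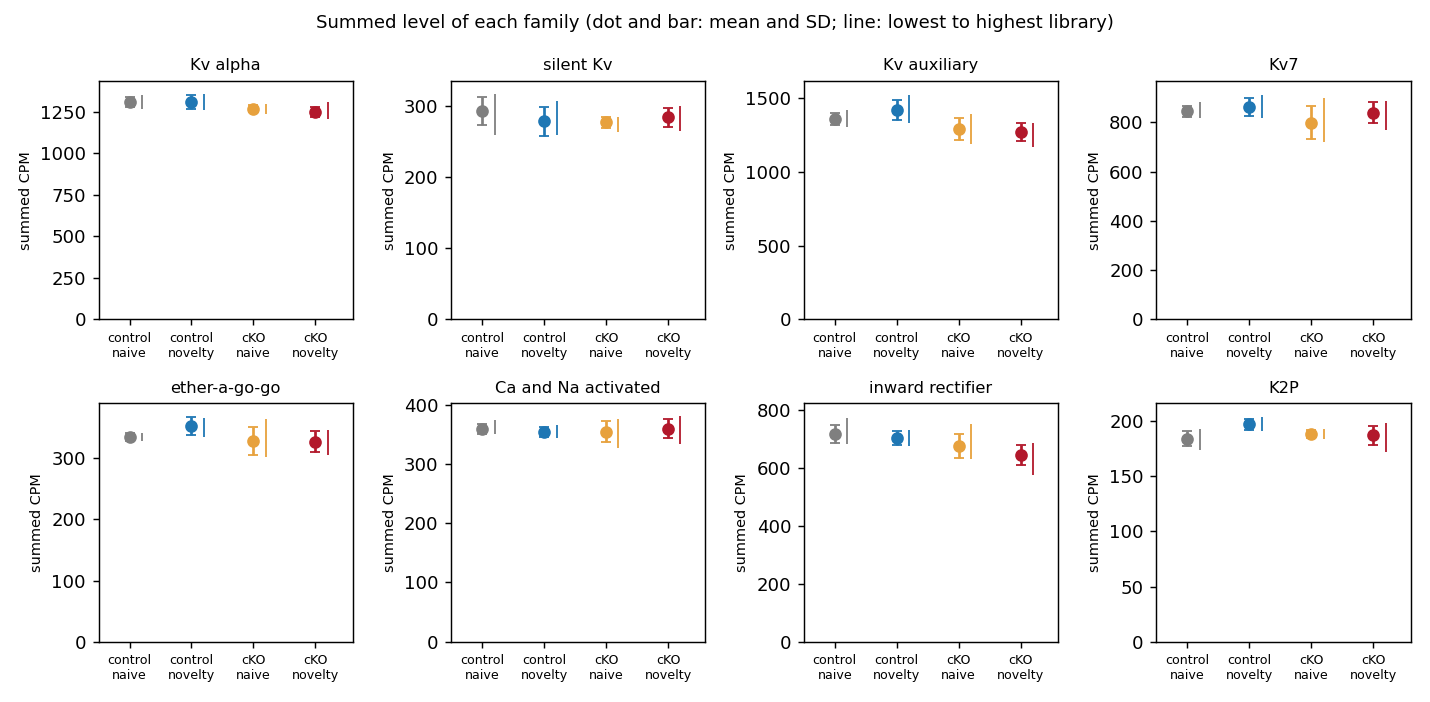
Summed CPM of the genes of each family in the 4 groups on axes from 0, with a dot and bar for the mean and SD and a line from the lowest to the highest library. The mean Kv auxiliary sum is 1360 and 1420 CPM in control and 1290 and 1270 CPM in cKO groups, naive and novelty in turn. For K2P these means are 184 and 197 CPM in control and 188 and 187 CPM in cKO groups.

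Besides the genes described after novelty, the average added Kcnab2 (above), Kcnc2, Kcns3, Kcng4, Kcnt2, Kcng3 and Kcnk9, while Kcnd2 and Kcnq3 did not pass in it. Kcnt2, a sodium-activated channel, ran from 31.5 to 42.9 CPM in control naive libraries (median 35.3 CPM) and from 28.2 to 34.4 CPM in cKO naive libraries (median 29.4 CPM). After novelty it held 40.9, 32.6, 33.1, 33.2 and 35.2 CPM in control libraries and ran from 27.6 to 33.5 CPM in cKO libraries (median 29.3 CPM). The cKO medians were lower in both exposures, with overlap, and Kcnt2 fell by 0.23 (SE 0.05, adjusted p = 0.00328). Its relative Kcnt1 gave 0.25 (SE 0.10, adjusted p = 0.0922), and its libraries spread widely, from 52.1 to 98.6 CPM.

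Kcnc2 and Kcns3 fell by 0.15 (SE 0.04, adjusted p = 0.0105) and by 0.24 (SE 0.05, adjusted p = 0.00204). After novelty Kcnc2 held 141, 137, 147, 143 and 135 CPM in control libraries and ran from 122 to 151 CPM in cKO libraries (median 128 CPM). Kcns3, a silent subunit, held 17, 17.9, 17.8, 19.9 and 16.4 CPM in control and ran from 13.8 to 17.1 CPM in cKO libraries (median 15.6 CPM). Both overlapped after novelty and both had a lower median in cKO mice. Both transcripts are known from fast-spiking interneurons, and 4 of the 9 interneuron markers were called lower on average. Pvalb, the calcium buffer of these cells, fell by 0.30 (SE 0.06, adjusted p = 0.003), Gad1 by 0.13 (SE 0.04, adjusted p = 0.0269), Gad2 by 0.11 (SE 0.04, adjusted p = 0.0416) and Cck by 0.20 (SE 0.05, adjusted p = 0.0193). Sst, Vip, Npy, Slc32a1 and Lhx6 were not called. Slc32a1 had means of 55 and 55 CPM in control and 53.8 and 53.8 CPM in cKO libraries, naive and novelty in turn. Lhx6 had 24.8 and 25.4 against 23.4 and 25 CPM, and Sst 230 and 222 against 192 and 193 CPM. The 9 interneuron markers summed to 1150 to 1340 CPM in control naive and 1180 to 1330 CPM in control novelty libraries. In cKO libraries they summed to 1030 to 1200 CPM (naive) and 1080 to 1250 CPM (novelty). The part of interneurons in the result was not tested.

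The calls of the silent subunits Kcng3 and Kcng4 and of the leak channel Kcnk9 were less steady when libraries were left out. Their mean raw counts were 49.2, 104 and 323. Kcnh6, with the largest called value, is also a low transcript, with a mean raw count of 79.6. Kcng4 ran from 4.47 to 7.14 CPM in control and from 3.97 to 6 CPM in cKO libraries, and fell by 0.28 (SE 0.09, adjusted p = 0.0352). Kcng3 ran from 1.43 to 2.9 CPM in control and from 2.25 to 3.44 CPM in cKO libraries, and rose by 0.31 (SE 0.09, adjusted p = 0.0343). Kcnk9, an acid-sensitive K2P channel, ran from 7.94 to 19.2 CPM in control and from 14.5 to 20.4 CPM in cKO libraries, and rose by 0.26 (SE 0.08, adjusted p = 0.0382). The groups overlapped for all 3. Their calls passed in 13, 16 and 12 of the 24 fits that left out 1 library, with adjusted p up to 0.0737, 0.0699 and 0.0864. Kcnh6, Kcnh7, Kcnt2, Kcnj3, Kcnab1, Kcnab3, Kcnip4, Kcnc2, Kcnd1 and Kcns3 passed in all 24 of those fits. The count of members ran from 10, without control novelty library 1, 2 or 5, to 18, without control naive library 4.

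**Figure D4:**
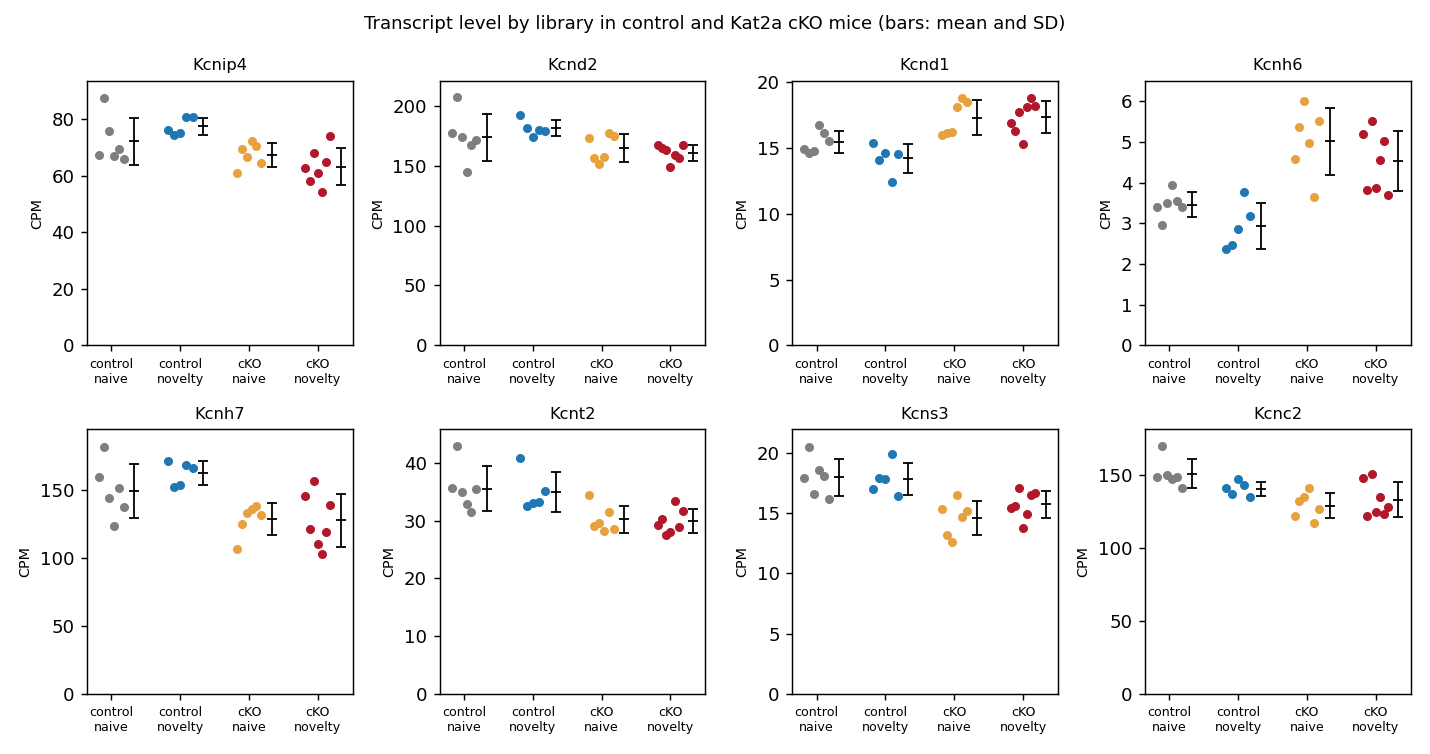
Level of 8 genes in CPM on axes from 0, 1 point a library in the 4 groups, with the mean and SD beside the points. Kcnip4 and Kcnd2 do not overlap between control and cKO mice after novelty, Kcnd1 and Kcnh6 are higher in cKO mice, and Kcnh7, Kcnt2, Kcns3 and Kcnc2 are lower.

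By family, the averaged genotype median was lowest for the Kv auxiliary and voltage-gated alpha genes, at -0.07 each, and highest for the ether-a-go-go genes, at 0.08. Of the 10 Kv auxiliary genes 4 were called lower and none higher, and of the 16 voltage-gated alpha genes 1 was called in each direction. Of the 9 silent genes 2 were called lower and 1 higher, and of the 8 ether-a-go-go genes 1 each way. The calcium- and sodium-activated channels had 1 of 10 lower, the inward rectifiers 1 of 12 lower, and the K2P channels 1 of 9 higher. No Kv7 gene of 5 was called. Over all genes 6.32% were called lower and 5.72% higher, and nothing is read from a single call in a family. Among members that did not pass were Kcnc1 at 0.02 (SE 0.03), Kcnma1 at -0.03 (SE 0.03), Kcnmb4 at 0.06 (SE 0.06), Kcnn1 at 0.02 (SE 0.04), Kcnn3 at 0.01 (SE 0.08), Kcnf1 at 0 (SE 0.07), Kcns2 at -0.05 (SE 0.07) and Kcng2 at 0.19 (SE 0.11). Kcnn2 gave -0.12 (SE 0.04, adjusted p = 0.0597) and Kcna4 -0.12 (SE 0.05, adjusted p = 0.086).

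**Figure D5:**
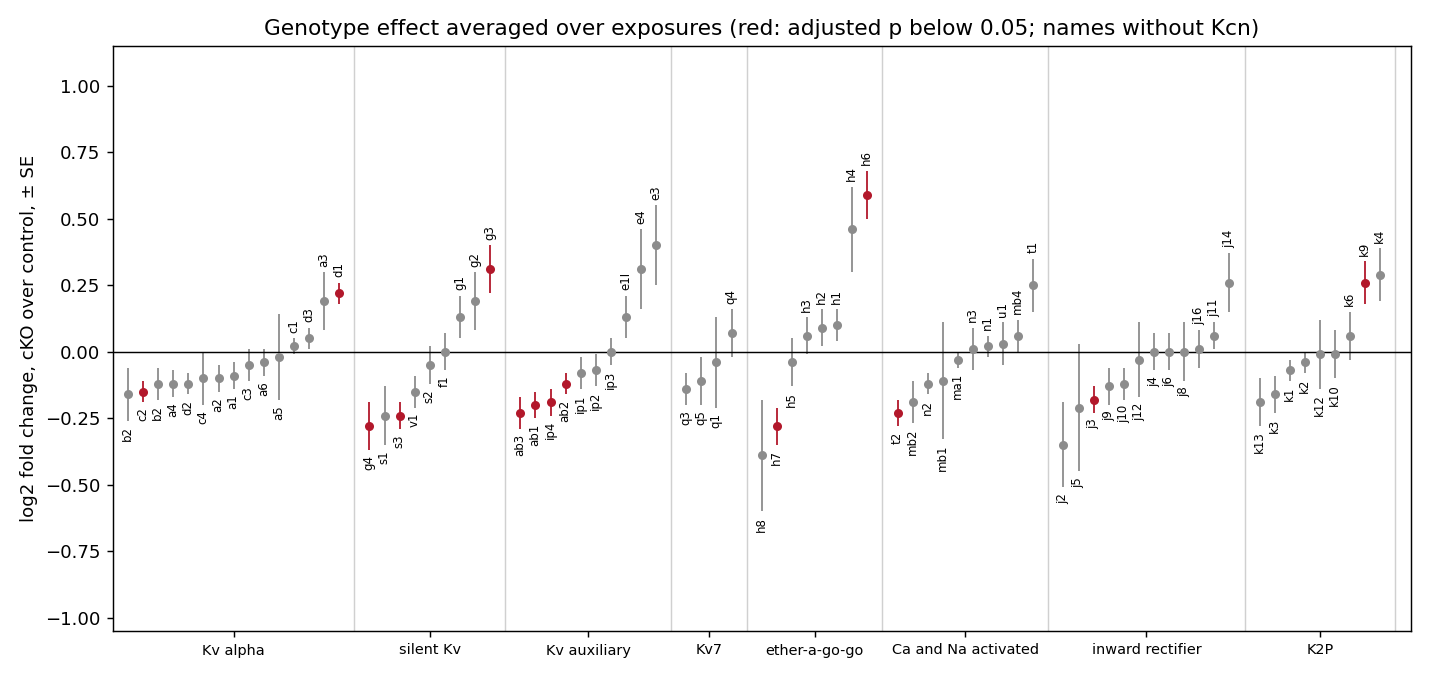
Log2 fold change of cKO over control averaged over exposures for 77 of the 79 genes with its SE, grouped by family, with genes past the threshold in red and names without the prefix Kcn. Kcnh6 at 0.59 is the highest called value, and 10 of the 14 called genes lie below 0.

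Of the members, 8 lie on chromosome 11, as does Kat2a. Kcnh4 is the nearest, 27.9 kb away, and Kcnh6 lies 5.30 Mb away. Kcnh4 ran from 1.63 to 4.36 CPM in control and from 2.74 to 5.91 CPM in cKO libraries, and gave 0.46 (SE 0.16, adjusted p = 0.0521), just outside the threshold. Of the others, Kcnab3 was lower and Kcnj2, Kcnj12, Kcnj16, Kcnip1 and Kcnmb1 did not pass, with values from -0.35 to 0.01. All 4 groups carry the same floxed allele, and a part of the position in these values was not tested.

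A list of 25 partner genes, made of auxiliary proteins, anchors and regulators of potassium channels outside the Kcn symbols, was read beside the members, and 24 were tested. Between genotypes, averaged over exposures, 7 were lower (6.32% of all genes were) and 1 was higher (5.72% of all genes were), with a median log2 difference of -0.09 against 0.005 for all genes. After novelty 3 partners were lower in cKO mice, Dlg4, Calm2 and Calm3, where 2.40% of all genes were. No partner passed between naive and novelty mice of either genotype. Calm2 and Calm3 encode calmodulin, a calcium sensor of the Kv7 and small-conductance channels. In the genotype comparison averaged over exposures, Calm2 fell by 0.16 (SE 0.04, adjusted p = 0.00309) and Calm3 by 0.19 (SE 0.03, adjusted p = 0.000345). The values that follow are from the same comparison. Dpp6, an auxiliary protein of Kv4 channels, fell by 0.11 (SE 0.03, adjusted p = 0.0151). Ank3, the anchor of Kv7 channels at the axon initial segment, fell by 0.09 (SE 0.02, adjusted p = 0.0172). Abcc8, the sulfonylurea receptor of the ATP-sensitive channel, rose by 0.26 (SE 0.05, adjusted p = 0.000553), while its pore subunit Kcnj11 gave 0.06 (SE 0.05, adjusted p = 0.482).

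Marker sums of several cell types were lower in cKO libraries beside these values, and those of others were not. Pericyte markers had mean sums of 192 and 185 CPM in control and 169 and 168 CPM in cKO libraries, naive and novelty in turn. For endothelium these means were 134 and 137 against 120 and 121 CPM. For oligodendrocyte precursors they were 170 and 172 against 156 and 156 CPM, and 2 of the 4 precursor markers were called lower on average. The 7 CA2 and CA3 markers summed to means of 222 and 223 CPM in control and 236 and 230 CPM in cKO libraries, naive and novelty in turn. For the 6 microglia markers these means were 288 and 278 against 298 and 285 CPM. On average 1 of the 7 CA2 and CA3 markers was called lower and no microglia marker was called. The 6 CA1 pyramidal markers summed to 1300 ± 124 CPM (SD, n = 6) in control naive and 1300 ± 65.7 (SD, n = 5) in control novelty libraries, against 1150 ± 74.4 (SD, n = 6) in cKO naive and 1110 ± 89.8 CPM (SD, n = 7) in cKO novelty libraries, and 2 of the 6 were called lower on average. The 4 excitatory neuron markers summed to means of 5420 and 5670 CPM in control and 4840 and 4810 CPM in cKO libraries, naive and novelty in turn. Most of that sum was Camk2a, with means of 3980 and 4270 CPM in control and 3500 and 3500 CPM in cKO libraries. Only Camk2a of the 4 was called, at -0.24 (SE 0.05, adjusted p = 0.00365). Slc17a7 had means of 1120 and 1090 CPM in control and 1050 and 1020 CPM in cKO libraries. Neurod6 had 267 and 257 against 234 and 235 CPM, and Tbr1 55.6 and 49.2 against 55 and 50.1 CPM. The 6 dentate granule markers summed to means of 175 and 201 CPM in control and 169 and 151 CPM in cKO libraries. Their median genotype difference was 0.01 in naive mice and -0.43 after novelty, and 1 of the 6, C1ql2, was called on average at -0.86 (SE 0.23, adjusted p = 0.0187). Of the 7 oligodendrocyte markers 5 were called lower, with a median of -0.27 and sums from 4500 to 5480 CPM in control and 3090 to 5970 CPM in cKO libraries. None of the 7 astrocyte markers was called, and their sums ran from 1560 to 1880 CPM in control and from 1520 to 1770 CPM in cKO libraries. The part of these cell types in the genotype values was not tested.

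In the authors' deposited table for control mice, 3 of 79 members had an adjusted p below 0.05 after novelty (Kcna4, Kcnk6 and Kcnk1), where 2.79% of its genes did. The authors' deposited table for cKO mice had 1, Kcna4, at a log2 fold change of -0.38 (adjusted p = 7.44e-11), with 4.41% of its genes. For genotype, the authors' deposited table of naive mice had 3 (Kcnc2, Kcnh6 and Kcns3) with 3.18% of genes, and the authors' deposited table after novelty had 14 of 78 with 8.17% of genes, 3 higher and 11 lower. Those 14 held all 9 members called here after novelty and added Kcnt1, Kcnt2, Kcnab2, Kcna4 and Kcng4.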

How the data were processed

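Polyadenylated RNA of 24 CA1 libraries was sequenced with a TruSeq RNA kit, per the labels' protocols, of a type that does not mark the strand. The authors deposited raw read counts per Ensembl gene, and STAR 2.3.0, HTSeq, DESeq2 and GRCm38.p2 are named without roles in the submitters' processing notes. The 5 summary entries of each table were left out of library sizes: 7.58 to 10.36% of reads fell in no gene and 14.82 to 17.97% mapped to several places. The authors also deposited 4 comparison tables, which per the file headers hold a mean normalised signal, a log2 fold change with its SE and a p-value, with a lowest base mean of 10. These gave the symbols and biotypes that chose the members.

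Counts were tested with edgeR 4.0.16 in R 4.3.3 (quasi-likelihood F test, TMM, filterByExpr at a minimum count of 10), fitted on all genes with Benjamini-Hochberg adjustment over all of them, and genes with an adjusted p below 0.05 passed. Each pairwise comparison used its own groups, and 1 fit over 24 libraries gave the averages and the interaction. Fold changes are second group over first: novelty over naive, and cKO over control. The fit was also run on simulated counts with known changes. Its recovery of changes as small as those reported is not given here, so the run is no evidence for the calls. Assigned reads per library (10.7 M to 35.75 M) limit the precision of low genes such as Kcnj5. Alternatives were DESeq2 1.42.0, limma 3.58.1 (voom), other scalings and filters, each library left out, a replicate block and a term for library numbers 1 to 3.

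Genes named are those called in any of the 7 fits, the 3 smallest p-values where none was called (mean raw count of at least 50), the 3 highest of each family, those next to the threshold and a fixed textbook list. Other members, such as Kcna5, Kcne3 and Kcnj5, were named after their values were seen. Members and lists were chosen with earlier results of these data known. The markers of other cell types are named only where their values stand beside a result. A few genes are not reported here by name or drawn, though they stay in all counts, medians and sums. Exon lengths and overlaps are from GENCODE M21 and promoters from RefSeq.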

Additional observations from a re-analysis of the deposited data

Results flagged for a closer look

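In the second control naive library, the one with the fewest assigned reads (10.7 M), 3 called genes stood far above the other 5 libraries of its group. Kcnj3 was at 250 CPM where the others ran from 166 to 194 CPM, Kcnc2 at 170 CPM where the others ran from 141 to 150 CPM, and Kcnt2 at 42.9 CPM where the others ran from 31.5 to 35.7 CPM. Of 76 combinations of called gene and group examined, 3 held such a value, and chance marks about 1 in 20 where values are independent. These 3 share 1 library, so that rate cannot judge them. This library was also the highest of its group for Kcnh7, Kcnab1, Kcnip4, Kcnd2, Kcns3 and Kcnk6. It was the lowest for Kcnab2, Kcnh6, Kcnd1, Kcnk9 and Kcng3. Without this library the averaged genotype calls of Kcnj3, Kcnc2 and Kcnt2 still passed.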

How the results depend on the processing

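No called gene changed direction under any alternative run. In controls after novelty, where no member passed, DESeq2 called 3, a term for library numbers 1 to 3 called 2, 1 fit over 24 libraries called 2, and leaving out 1 library gave 0 to 2. In naive mice between genotypes, where no member passed, the same 3 alternatives called 3, 1 and 4, and leaving out 1 library gave 0 to 1. After novelty between genotypes the 9 calls became 4 in 1 fit over 24 libraries and 2 to 9 with 1 library left out. Deviations of same-numbered libraries correlated from -0.128 to 0.316 (medians from -0.0649 to 0.0371 over pairs of groups). After novelty 3 of 5 numbers matched best across genotypes, with a median correlation of 0.00315, against 0 or 1 in the other pairs of groups. Whether the numbers pair the novelty libraries is not settled by these values, and the labels do not say. With the replicate number as a block (replicate block), which pairs libraries by number alone, the 9 calls between genotypes after novelty became 4, all lower. The block left the counts of the other comparisons within 1.5 times of those reported, but Kcnj2 (novelty average, adjusted p = 0.068), Kcng3 (genotype average, 0.0713) and Kcng4 (genotype average, 0.0748) did not pass. The averaged genotype count ran from 10 to 18 with 1 library left out, and from 11 without a filter on low counts to 19 with DESeq2. The shares of all genes called in these alternative runs are not given beside the counts. The counts therefore do not show whether the members shifted apart from other genes. The cause of these shifts was not tested. Kcna4 passed in every alternative of the averaged and the cKO novelty comparison, with adjusted p from 2.11e-10 to 0.0135. Depth limits the low members most: Kcnq1, Kcnj5, Kcne3, Kcne4, Kcnh8 and Kcnmb1 had mean raw counts of 11.6 to 18.8.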
